A study of Mus musculus with 8 samples.

Results

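The genes described here carry glucose into the cell, split it to pyruvate, turn pyruvate to lactate and back, move lactate across membranes and admit pyruvate to the mitochondrion. They were chosen by symbol, as every gene of the deposited count table whose symbol matched a list of 35. All 35 symbols were found, in 36 of 26824 genes, because Eno1 named 2 genes of the table, and all 36 had enough counts to be tested. RNA was sequenced from retinas of 3 wild-type mice (WT 1 to WT 3) and 5 mice labelled as knockouts of Kv8.2 (KO 2 to KO 6), a modulatory potassium channel subunit of photoreceptors that the gene Kcnv2 encodes. The mice were 1 month old and untreated, and each library pooled the 2 retinas of a single mouse. The labels give no strain, sex or deleted exon, and they place the loss of Kv8.2 in no particular cell type.

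The outer retina is known for aerobic glycolysis: photoreceptors take in glucose and release much of it as lactate even when oxygen is present. Hexokinase, phosphofructokinase and pyruvate kinase are the steps of glycolysis that are far from equilibrium, and lactate dehydrogenase restores the cofactor that the middle of the pathway uses. Lactate leaves through monocarboxylate carriers that need basigin to reach the membrane, while pyruvate that is to be oxidised passes the mitochondrial pyruvate carrier and then pyruvate dehydrogenase, which kinases switch off.

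Promoter sequences are shown for the called members with the greatest fold change in each direction, Hk2 and Mpc1, and for the called glucose carrier Slc2a1, because the results below turn on these genes. RefSeq promoter windows on build GRCm38.p6 were matched by symbol for 33 of the 35 symbols, and not for Bsg and Slc2a3. The 250 bases before the annotated start of transcription are printed, 5′ to 3′ along the gene's strand, for the first listed start of Mpc1 and the only listed start of the others. Capitals mark the core of the hypoxia response element, ACGTG or GCGTG, on either strand. The windows lie at chr6:82774455-82774704 on the minus strand (Hk2), chr4:119108495-119108744 on the plus strand (Slc2a1) and chr17:8283537-8283786 on the plus strand (Mpc1).
Hk2: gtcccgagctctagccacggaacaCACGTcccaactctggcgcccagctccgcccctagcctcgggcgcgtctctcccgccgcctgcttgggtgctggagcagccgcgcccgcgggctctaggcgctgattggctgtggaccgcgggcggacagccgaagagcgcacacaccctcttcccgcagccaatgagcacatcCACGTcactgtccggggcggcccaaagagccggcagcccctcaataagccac
Slc2a1: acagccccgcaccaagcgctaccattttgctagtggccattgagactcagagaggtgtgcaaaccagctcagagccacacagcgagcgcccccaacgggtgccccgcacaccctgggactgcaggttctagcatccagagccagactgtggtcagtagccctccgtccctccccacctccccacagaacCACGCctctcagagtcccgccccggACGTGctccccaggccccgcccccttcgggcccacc
Mpc1: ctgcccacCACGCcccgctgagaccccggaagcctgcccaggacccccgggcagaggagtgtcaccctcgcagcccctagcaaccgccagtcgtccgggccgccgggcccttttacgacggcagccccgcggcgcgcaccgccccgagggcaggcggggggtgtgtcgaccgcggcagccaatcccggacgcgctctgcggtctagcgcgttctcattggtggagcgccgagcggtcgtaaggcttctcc

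Hk2 and Slc2a1 each held 2 matches to this core, and Mpc1 held 1, in the windows printed. Mpc1 has a second listed start, whose 250 bases at chr17:8284204-8284453 held 0 matches. Among windows of the same 250 bases for all genes, 38.6% of 32851 held the core. Among the 53 windows of the listed genes, 39 held it, or 73.6%. Of the other motifs searched on both strands, the GC box GGGCGG was in 49.1% of the listed genes' windows and 32.7% of all, and the E-box CACGTG, which overlaps the core, in 11.3% and 6.0%. The photoreceptor motif TAATCC was in 9.4% and 6.3%, and the STAT motif TTCNNNGAA in 3.8% and 7.0%. The comparison is not matched for base composition: GC made up 69.6% of the printed Hk2 window, 66.4% of that of Slc2a1 and 73.6% of that of Mpc1. The match is a count of letters in a window. It does not show a bound site.

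The libraries held 17759146 to 25188870 counts. The transcript of the targeted gene was present in every library: Kcnv2 counted 519, 551 and 526 CPM (counts rescaled to a common library total) in the WT libraries and 585, 447, 398, 409 and 409 CPM in KO 2 to KO 6. Its log2 fold change was -0.24 (SE 0.14, adjusted p = 0.275 from edgeR, adjusted over all genes tested, as are the adjusted p-values below). KO 2 was above every WT library and the other 4 were below. Kcnv2 was called lower without KO 2 (adjusted p = 0.0298) and with KO 4 to KO 6 alone (log2 fold change -0.38, adjusted p = 0.000116). Since the transcript was present throughout and not lower in KO 2, the groups are called by their labels. KO 4 to KO 6 stood apart from the other libraries in earlier results of these data. Mitochondrially encoded genes took 3.03% to 3.70% of their counts, against 5.23% to 6.52% in KO 2 and KO 3 and 7.09% to 7.92% in WT. KO 3 stood apart in another way, with 4.93% of its counts in a list of 15 lens genes, against 0.000212% to 0.164% in the other 7 libraries. The labels name no batch, and results below are given with and without these libraries. Marker genes of rods were present in every library, at a summed 37197 to 54879 CPM. Because these are whole retinas, fewer cells of a type and less RNA per cell cannot be told apart.

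Across all genes, 20167 were tested with all 8 libraries, and 7.58% were called at an adjusted p under 0.05. The share called higher in the libraries labelled KO was 4.74% and the share called lower was 2.84%. Of the 36 listed genes, 4 were called higher (Slc2a1, Hk1, Hk2 and Aldoc) and 1 was called lower (Mpc1), while 31 were not called. The fold change was above 0 in 23 of the 36, and the median log2 fold change was 0.08, beside a median of 0.00073 over all tested genes. The separation of the groups gave a second count. In 5 of the 36, every library labelled KO lay above every WT library, which 10.8% of all tested genes did, and in 4 every one lay below, as in 10.1% of all tested genes. Scaling by library size alone in place of TMM turned the split among all genes from 956 higher and 573 lower to 566 higher and 787 lower, and the split among the listed genes from 4 and 1 to 3 and 3.

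The 36 genes together took 1.49% ± 0.0119 of all counts in WT (SD, n = 3), against 1.97% ± 0.343 (SD, n = 5) with the KO label. The KO shares ran from 1.41% in KO 3 to 2.31% in KO 5. KO 3 was below all WT libraries, and the other 4 were above them.

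Levels per transcript length ran from abundant transcripts to a handful of counts. Gapdh stood highest in WT, at 1307 ± 82.0 CPM per kilobase (SD, n = 3), and Pdk4 lowest, at 0.172 ± 0.0318. Below Gapdh came Pkm at 814 ± 23.1 and Aldoa at 812 ± 56.2 CPM per kilobase, which did not differ beyond their spread, and then Eno1 at 578 ± 43.8. Pgam1 at 465 ± 23.0, Ldha at 464 ± 19.1, Tpi1 at 423 ± 25.7 and Pgk1 at 411 ± 17.0 CPM per kilobase followed close together. Some isozymes were near the floor of detection: Pfkfb1 had 19 to 34 counts per library, the Eno1 gene of lower count had 13 to 55, and Pdk4 had 6 to 15. A level of 3 counts was worth 0.130 to 0.164 CPM, depending on the library.

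**Figure D1:**
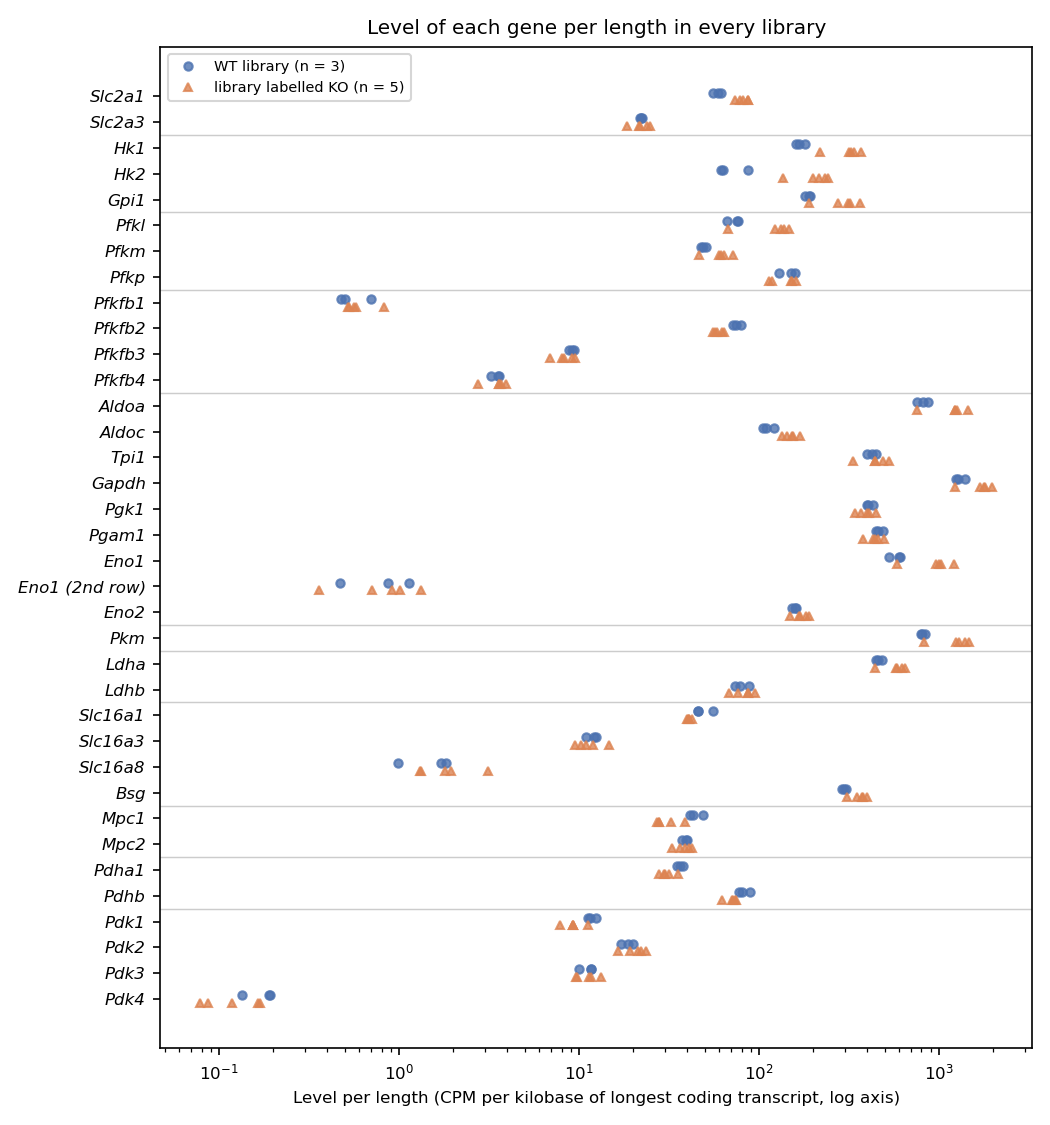
Level of each of the 36 genes in every library, in CPM per kilobase of its longest coding transcript on a log axis. Circles are the 3 WT libraries, triangles the 5 libraries labelled KO, and grey lines part the roles; Hk2 is the gene whose groups lie farthest apart.

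Glucose enters retinal cells through facilitative carriers. Slc2a1, which encodes GLUT1 and serves photoreceptors, Muller glia, the vessel wall and the pigment epithelium, rose by a factor of 1.38 in the libraries labelled KO. It counted 194, 182 and 201 CPM in the WT libraries in turn, against 285, 239, 257, 285 and 265 CPM in KO 2 to KO 6. Every library labelled KO was above every WT library, and KO 3 was the closest to them. Its log2 fold change was 0.47 (SE 0.10, adjusted p = 0.0251). The call was kept in 2 of the 8 fits that left out a library, those without KO 2 or without KO 3, and across all 8 the adjusted p ran from 0.00266 to 0.129. The summed CPM of 6 endothelial and pericyte markers was higher too. It ran from 102 to 117 in WT and from 125 to 141 in the libraries labelled KO, and 1 of the 6, Pdgfrb, was called higher. Within the KO label the sum took another order than Slc2a1, at 141, 139, 130, 125 and 127 CPM in KO 2 to KO 6. Rgs5 made up the greater part of the sum and was not called. Of 6 Muller glia markers 2 were called higher, Kcnj10 (log2 fold change 0.54, adjusted p = 0.0344) and Sox9 (0.62, adjusted p = 0.0269), with a summed 3077 to 3264 CPM in WT and 3085 to 4682 CPM in the libraries labelled KO. Of 5 microglia markers 2 were called higher, Csf1r (adjusted p = 0.0395) and Tmem119 (adjusted p = 0.0393), and P2ry12 alone had a fold change below 0. The 5 summed to 22.2 to 25.1 CPM in WT and 27.2 to 39.8 CPM in the libraries labelled KO. The part of these cell types in the Slc2a1 result was not tested. Slc2a3, the GLUT3 carrier of neurons, stood at 87.7 ± 1.51 CPM in WT and 87.8 ± 9.57 in the libraries labelled KO, with a log2 fold change of 0.00 (SE 0.10, adjusted p = 0.993).

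Hexokinases trap glucose by phosphorylating it, and both hexokinase genes had greater fold changes than the other 34. Hk2, the isozyme that photoreceptors use, rose by a factor of 2.90, and Hk1, the isozyme found in most neurons, by a factor of 1.85. Hk2 counted 341, 349.9 and 482 CPM in the WT libraries in turn, against 1340.5, 755, 1195, 1288 and 1101 CPM in KO 2 to KO 6. The groups did not overlap: the lowest library labelled KO, KO 3, was still well above WT 3, the highest of the WT libraries. The log2 fold change of Hk2 was 1.54 (SE 0.20, adjusted p = 0.00397). Of all 36 genes only Hk2 was called in each of the 8 fits that left out a library, with adjusted p from 0.000242 to 0.0413, and in each of the 10 fits that left out a pair of libraries labelled KO. Of 8 rod markers, Sag was called higher (log2 fold change 0.87, adjusted p = 0.0169). The summed rod markers had 41527 to 45041 CPM in WT, against 54879, 37197, 47428, 51565 and 47638 CPM in KO 2 to KO 6. KO 3 was below every WT library and the others labelled KO were above. Of 8 cone markers 3 were called lower (Gnat2, Pde6h and Gngt2) and 1 higher (Pde6c), with sums of 953 to 1190 CPM in WT and 688 to 916 CPM in the libraries labelled KO. Their part in the Hk2 result was not tested.

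Hk1 counted 687, 715 and 769 CPM in the WT libraries in turn, against 1583, 933, 1358, 1436 and 1396 CPM in KO 2 to KO 6. KO 3 again lay nearest to WT, and the other 4 lay close together. For Hk1 the log2 fold change was 0.89 (SE 0.16, adjusted p = 0.0152). The call was lost when any 1 WT library was left out, with an adjusted p of up to 0.0973, and kept when any 1 library labelled KO was. The ratio of Hk2 to Hk1 per length was 0.380 to 0.487 in the WT libraries and 0.612 to 0.696 in those labelled KO. No library labelled KO fell inside the WT range of this ratio, KO 3 included. The ratio was not tested.

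Gpi1, which turns glucose 6-phosphate to fructose 6-phosphate, did not pass the edgeR test over all libraries, whereas DESeq2 called it (adjusted p = 0.00378). Limma voom called it too (adjusted p = 0.000130). Here and below, limma voom was run with quality weights, which let libraries far from the rest count for less. Its level was 520.3 to 557 CPM in WT, 547 CPM in KO 3 and 796 to 1052 CPM in the other 4 libraries labelled KO. Its log2 fold change was 0.64 (SE 0.18, adjusted p = 0.0597).

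**Figure D2:**
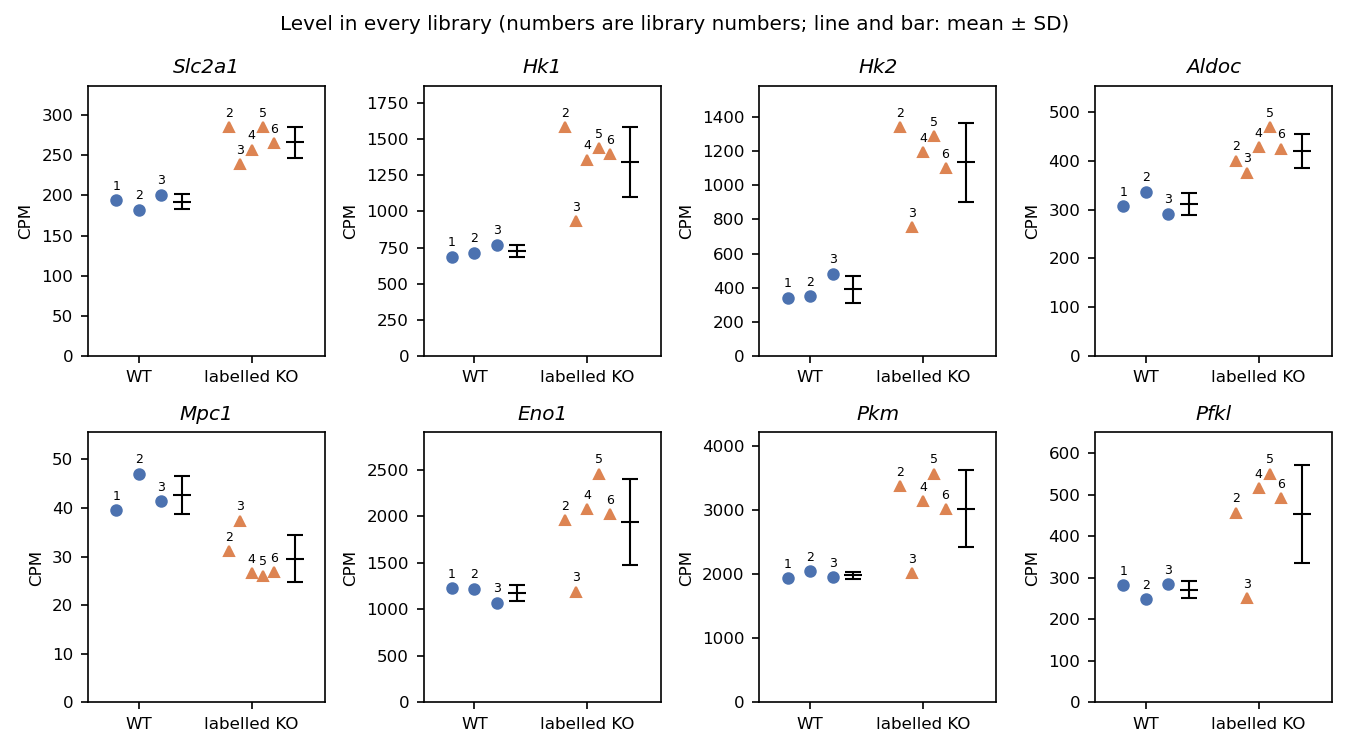
CPM of 8 genes in each library, with the library's number above its point and the mean and SD of each group beside the points (WT n = 3, labelled KO n = 5; axes start at 0). Slc2a1, Hk1, Hk2 and Aldoc have every library labelled KO above WT and Mpc1 has every one below, whereas in Eno1, Pkm and Pfkl the library KO 3 lies at or near the WT values.

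Phosphofructokinase commits sugar to glycolysis, and edgeR called none of its 3 subunit genes, where 2 had an unadjusted p under 0.05, DESeq2 called 1 and limma voom 2. Pfkp, the platelet-type subunit, had the highest level per length of the 3, at 658, 536 and 626 CPM in the WT libraries in turn, against 488, 469, 669, 634 and 625 CPM in KO 2 to KO 6. KO 2 and KO 3 were below all WT libraries and the other 3 were among or above them, so the groups overlapped, with a log2 fold change of -0.07 (SE 0.14, adjusted p = 0.790). Pfkl, the liver-type subunit, had 248 to 284 CPM in WT, 252 CPM in KO 3 and 457 to 551 CPM in the other 4. Its log2 fold change was 0.74 (SE 0.22, adjusted p = 0.0640). Pfkm, the muscle-type subunit, had a log2 fold change of 0.30 (SE 0.13, adjusted p = 0.157).

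The bifunctional enzymes of the Pfkfb family set the level of fructose 2,6-bisphosphate, the main activator of phosphofructokinase. Pfkfb2 had by far the highest level per length of the 4, and counted 351, 329.6 and 317 CPM in the WT libraries in turn, against 244, 259, 276, 253 and 284 CPM in KO 2 to KO 6. All 5 libraries labelled KO were below all WT libraries, yet Pfkfb2 did not pass the test, with a log2 fold change of -0.34 (SE 0.09, adjusted p = 0.0546). DESeq2 and limma voom each called 1 of the 4, and 1 had an unadjusted p under 0.05 in edgeR. The other 3 were not called, with log2 fold changes of -0.12 for Pfkfb3, 0.01 for Pfkfb4 and 0.11 for Pfkfb1.

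The steps from aldolase to enolase split the sugar and earn back its phosphate. Of the 9 genes of this stretch, edgeR called Aldoc alone, 4 had an unadjusted p under 0.05, and DESeq2 and limma voom each called 4. Aldoc, the brain-type aldolase, counted 307, 337 and 292 CPM in the WT libraries in turn, against 401, 376, 429, 469 and 425 CPM in KO 2 to KO 6. All libraries labelled KO were above all WT libraries, and the log2 fold change was 0.43 (SE 0.11, adjusted p = 0.0410). Its call held in 2 of the 8 fits that left out a library, those without KO 2 or without KO 3, with adjusted p from 0.00640 to 0.171 over the 8.

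Eno1, the main enolase of most tissues, lay just outside the threshold. It had 1069.9 to 1226 CPM in WT, 1190.4 CPM in KO 3 and 1959 to 2456 CPM in the other 4, with a log2 fold change of 0.73 (SE 0.20, adjusted p = 0.0503). The other gene with this symbol, ENSMUSG00000059040, counted 0.640 to 2.39 CPM over all libraries, and 81.8% of its 31-base words also occur in the main Eno1 gene, so its few counts could belong to either. Aldoa, the muscle-type aldolase, had a log2 fold change of 0.54 (SE 0.18, adjusted p = 0.0868). Gapdh, whose enzyme makes the pathway's reduced cofactor, had one of 0.38 (SE 0.15, adjusted p = 0.129). Of the 31-base words of Gapdh, 62.6% occur in other genes of the annotation as well, and of those of Pgk1 68.3%, but none of the latter in another gene of the count table. Adding to each listed gene the counts of table genes that shared over 10% of its words left the number called at 5. The remaining genes of this stretch had log2 fold changes between -0.08 and 0.12: Pgam1 (-0.08), Pgk1 (-0.07), Tpi1 (0.08) and Eno2, the neuronal enolase (0.12).

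Pyruvate kinase closes the pathway. Pkm counted 1941, 2045 and 1955 CPM in the WT libraries in turn, against 3376, 2016, 3143, 3568 and 3012 CPM in KO 2 to KO 6. KO 3 sat inside the WT range, and the other 4 were well above it. The log2 fold change was 0.61 (SE 0.17, adjusted p = 0.0513), just outside the threshold, and without KO 3 it was 0.73 (adjusted p = 0.00131). DESeq2 called Pkm with all libraries (adjusted p = 0.00273), and so did limma voom with its quality weights (adjusted p = 0.000134). The gene-level count does not part the M1 from the M2 splice form.

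KO 3 was the lowest of the 5 libraries labelled KO in 22 of the 36 genes, beside 23.6% of all tested genes. It was above every WT library in 6 of the 36, beside 30.1% of all genes, whereas KO 2 was in 19, beside 36.1%, and KO 4, KO 5 and KO 6 all were in 14, beside 25.9%. In 9 of the 36 exactly 4 of the 5 libraries labelled KO were above every WT library, which held for 11.5% of all genes, and in all 9 the exception was KO 3, a pattern of 6.53% of all genes. With KO 3 left out, 13 of the 36 were called higher and 2 lower, and 3992 of the 19920 genes tested were called. With KO 2 left out the number called also went up, to 7 higher and 4 lower, with 13.9% of all genes. Leaving out a WT library left 1 call among the 36 and 0.636% to 0.955% of all genes, and leaving out KO 4, KO 5 or KO 6 left 2 and 1.84% to 2.68%. The lens share of KO 3 moves with its low values, and its part in them was not tested. With lens genes removed before scaling, the calls over all libraries were 5 higher and 2 lower, beside 1027 and 584 of 20132 genes.

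**Figure D3:**
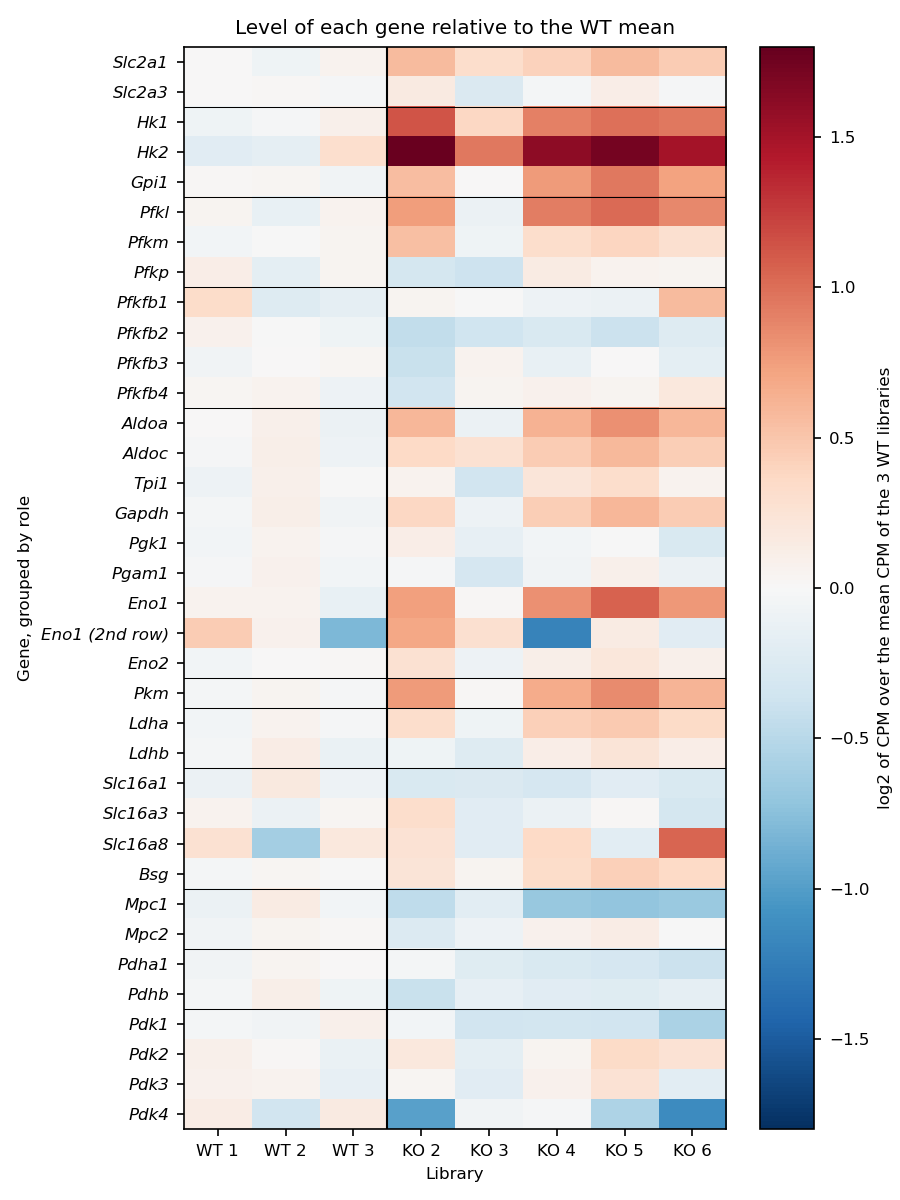
Each gene's CPM in every library relative to the mean of the 3 WT libraries, as a log2 value from blue (lower) to red (higher), with genes grouped by role between the thin lines. The column of KO 3 is paler or bluer than those of the other libraries labelled KO in most rows from Gpi1 to Ldha, and Hk2 is the darkest red.

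Lactate dehydrogenase joins pyruvate and lactate. Ldha, the subunit that favours lactate in glycolytic tissue, counted 814, 880.3 and 831 CPM in the WT libraries in turn, against 1045, 799, 1132, 1171 and 1066 CPM in KO 2 to KO 6. KO 3 was below all WT libraries and the other 4 were above them, and Ldha did not pass the edgeR test, with a log2 fold change of 0.31 (SE 0.13, adjusted p = 0.159), nor that of DESeq2, but limma voom called it (adjusted p = 0.000787). Ldhb, the heart-type subunit, had a log2 fold change of 0.04 (SE 0.12, adjusted p = 0.856). The ratio of Ldha to Ldhb per length was 5.48 to 6.18 in WT and 6.44 to 7.56 in the libraries labelled KO, where no library overlapped the WT range. This ratio was picked with its values known and was not tested.

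Monocarboxylate carriers move lactate and pyruvate across the cell membrane, and edgeR called none of the 4 genes of this role, where 2 had an unadjusted p under 0.05, and DESeq2 and limma voom each called 2. Bsg, the chaperone basigin that these carriers need, had the highest level per length of the 4 and counted 441, 464 and 452 CPM in the WT libraries in turn, against 532, 469, 570.1, 612 and 578 CPM in KO 2 to KO 6. Every library labelled KO was above WT, KO 3 by the least, and the log2 fold change was 0.29 (SE 0.11, adjusted p = 0.121). Slc16a1, which encodes MCT1, lay the other way, at 203 to 246 CPM in WT and 176 to 188 CPM in the libraries labelled KO. Its groups did not overlap, but it did not pass the test (log2 fold change -0.27, SE 0.09, adjusted p = 0.0990). Slc16a3, the MCT4 carrier, had a log2 fold change of -0.04. Slc16a8, the MCT3 carrier of the pigment epithelium, counted 1.79 to 5.65 CPM over all libraries, with a log2 fold change of 0.34 (SE 0.32, adjusted p = 0.528). The summed CPM of 8 pigment epithelium markers was 65.7 to 85.6 in WT and 72.7 to 116 in the libraries labelled KO, highest in KO 6, where Slc16a8 was highest too. Ttr and Rgr carried that sum, with 54.2 and 45.9 CPM in KO 6, and the other 6 markers had fold changes below 0. Tyrp1, a pigment gene, counted 2.51 CPM in KO 6 and 8.23 to 13.3 CPM in WT. None of the 8 was called by edgeR, and their part in the Slc16a8 values was not tested.

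The mitochondrial pyruvate carrier is built of a pair of subunits, and 1 of its 2 genes was called. Mpc1 fell to 0.693 of its WT level, whereas Mpc2 was at 0.987 of its own. Mpc1 counted 39.6, 47.1 and 41.4 CPM in the WT libraries in turn, against 31.1, 37.4, 26.6, 26.1 and 26.8 CPM in KO 2 to KO 6. All libraries labelled KO were below all WT libraries, KO 3 by the least and KO 4 to KO 6 by the most. Between the groups the log2 fold change of Mpc1 was -0.53 (SE 0.13, adjusted p = 0.0392), and that of Mpc2 was -0.02 (SE 0.10, adjusted p = 0.925). The call on Mpc1 held in 2 of the 8 fits that left out a library, those without KO 2 or without KO 3, with adjusted p from 0.00311 to 0.178 over the 8. Of the 31-base words of Mpc1, 16.7% also occur in other annotated genes, but none in another gene of the count table. The ratio of Mpc1 to Mpc2 per length was 1.14 ± 0.0697 in WT (SD, n = 3) against 0.817 ± 0.197 (SD, n = 5) with the KO label, where all 5 were below all WT libraries.

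Pyruvate dehydrogenase turns pyruvate to acetyl coenzyme A. Pdhb, its beta subunit, had the higher level per length and counted 121, 134 and 118 CPM in the WT libraries in turn, against 94.1, 113, 109, 107 and 112 CPM in KO 2 to KO 6. Every library labelled KO was below every WT library, by a margin that was small for KO 3 and KO 6, and Pdhb did not pass the test (log2 fold change -0.22, SE 0.09, adjusted p = 0.141). Pdha1, the catalytic alpha subunit, had a log2 fold change of -0.24 (SE 0.09, adjusted p = 0.124). Both subunits had an unadjusted p under 0.05, limma voom called 2 and DESeq2 0. Of the 4 kinases that switch the enzyme off, edgeR called none, 1 had an unadjusted p under 0.05, limma voom called 1 and DESeq2 0. Pdk2 had the highest level per length of them, with 44.6, 42.2 and 38.2 CPM in the WT libraries in turn, against 47.6, 36.9, 43.2, 52.9 and 49.9 CPM in KO 2 to KO 6. Its groups overlapped, and its log2 fold change was 0.15 (SE 0.12, adjusted p = 0.454). Pdk1 stood at -0.32 (SE 0.11, adjusted p = 0.0907), Pdk3 at 0.00 (SE 0.13, adjusted p = 0.988) and Pdk4, at its few counts, at -0.48 (SE 0.39, adjusted p = 0.461) on the log2 fold change scale.

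The threshold cut through a run of near values. Beside the 5 calls, 8 genes had an adjusted p under 0.10, of which 5 had fold changes above 0 (Eno1, Pkm, Gpi1, Pfkl and Aldoa) and 3 below (Pfkfb2, Pdk1 and Slc16a1). Over all tested genes, 5.02% fell in that band with a fold change above 0 and 4.05% with one below. At an unadjusted p under 0.05, 13 of the 36 were higher, beside 15.1% of all genes, and 6 were lower, beside 12.2%. DESeq2 called 15.5% of all genes over all 8 libraries and limma voom 40.9%, against which their counts in the roles above are to be read.

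The libraries labelled KO were then divided into KO 4 to KO 6, which stood apart, and the remaining KO 2 and KO 3. This division was taken from the data, not from the labels, and both comparisons use the same WT libraries. KO 2 and KO 3 were unlike each other, with Pkm at 3376 and 2016 CPM. By chi-square per degree of freedom over gene counts, KO 2 lay farther from KO 3 (112) than from KO 4, KO 5 and KO 6 (44.4, 49.0 and 62.8). Values with KO 2 and KO 3 alone average these 2 unlike libraries. With KO 2 and KO 3 alone, 0.891% of 20201 genes were called, 0.624% higher and 0.267% lower. Of the 36 listed genes, Hk2 alone was called, at a log2 fold change of 1.42 (adjusted p = 0.0473). That call was lost without WT 1 (adjusted p = 0.255), without WT 2 (0.263) or without WT 3 (0.101). With KO 4 to KO 6 alone, 42.8% of 19678 genes were called, 22.3% higher and 20.5% lower. Of the listed genes 15 were called higher and 6 lower. The median log2 fold change of the 36 was 0.03 with KO 2 and KO 3 and 0.16 with KO 4 to KO 6, beside -0.0015 and 0.0051 over all tested genes.

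The log2 fold change of Hk2 was 1.42 with KO 2 and KO 3 and 1.62 with KO 4 to KO 6. That of Hk1 was 0.80 and 0.96, that of Slc2a1 0.45 and 0.49, and that of Aldoc 0.32 and 0.51. For Mpc1 the values were -0.32 and -0.68. The 5 genes just outside the threshold with values above 0 had 0.31 and 0.83 (Gpi1), 0.38 and 0.95 (Pfkl), 0.29 and 0.70 (Aldoa), 0.43 and 0.91 (Eno1) and 0.45 and 0.72 (Pkm). The difference between these comparisons was not tested, since the libraries were divided by their values.

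**Figure D4:**
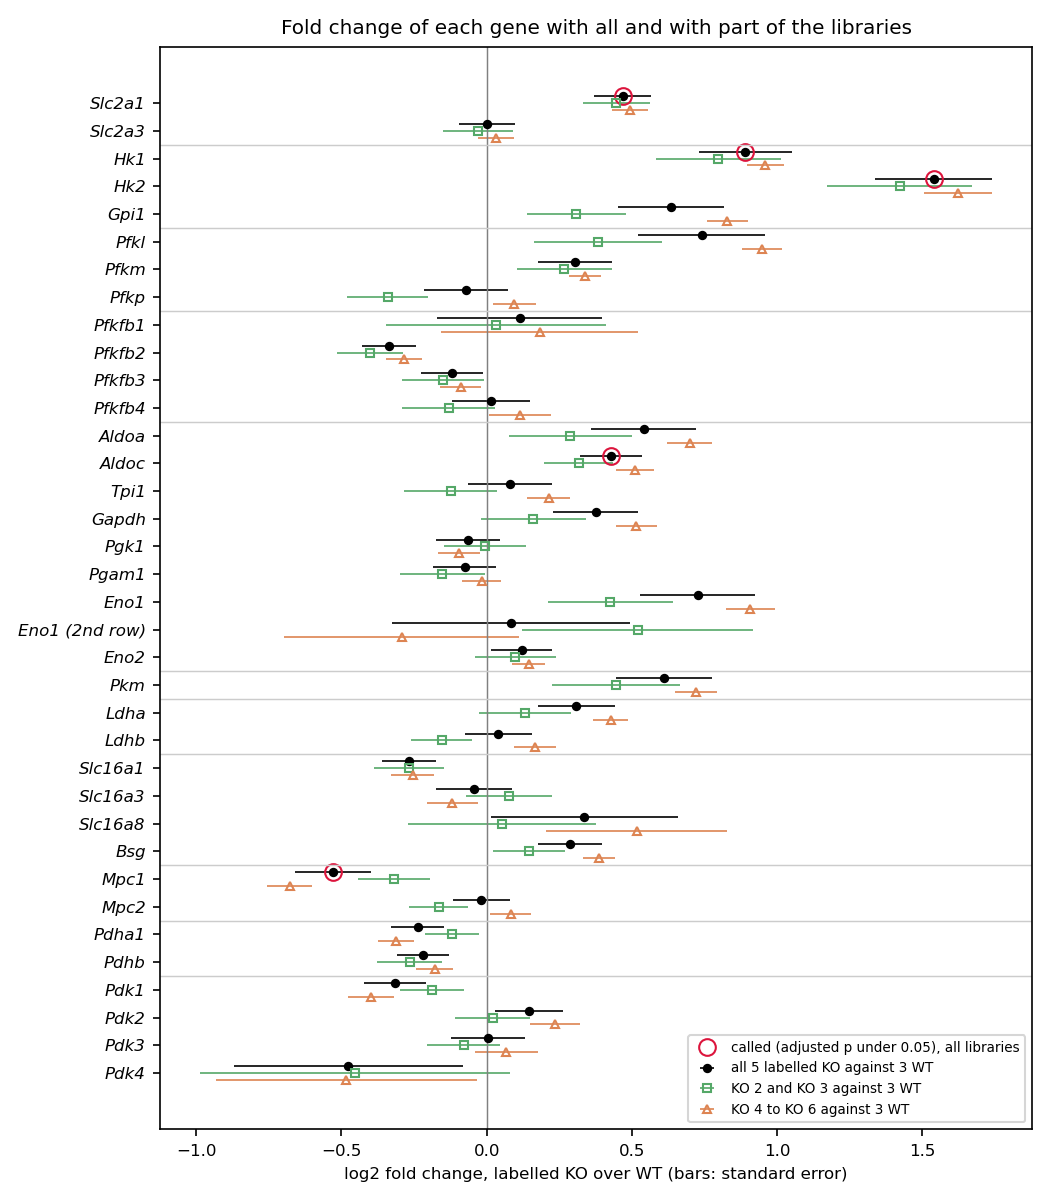
Log2 fold change of each gene with its standard error, for all 5 libraries labelled KO (black circles), KO 2 and KO 3 (green squares) and KO 4 to KO 6 (orange triangles), each against the same 3 WT libraries. Red rings mark the 5 genes called over all libraries; Hk2 has the greatest values in all 3 comparisons.

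Fold changes varied with the base composition of the transcripts. Over 18028 tested genes with a known GC content, Spearman's rho between GC content and log2 fold change was 0.460, and over the 36 listed genes it was 0.744. These are descriptions across genes, which share the same 8 libraries and are not independent. Median GC content was 53.1% for the 36 and 49.5% for all. With each library corrected for GC content, the median log2 fold change of the 36 turned from 0.08 to -0.04, beside 0.0098 over all genes, and 3 were called higher and 1 lower, beside 7.46% of all genes called either way. Hk2 kept a log2 fold change of 1.44 (adjusted p = 0.00301), Hk1 had 0.69 (0.0193), Aldoc 0.34 (0.0410) and Mpc1 -0.50 (0.0307). Slc2a1 lost its call, at 0.32 (adjusted p = 0.0512).

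**Figure D5:**
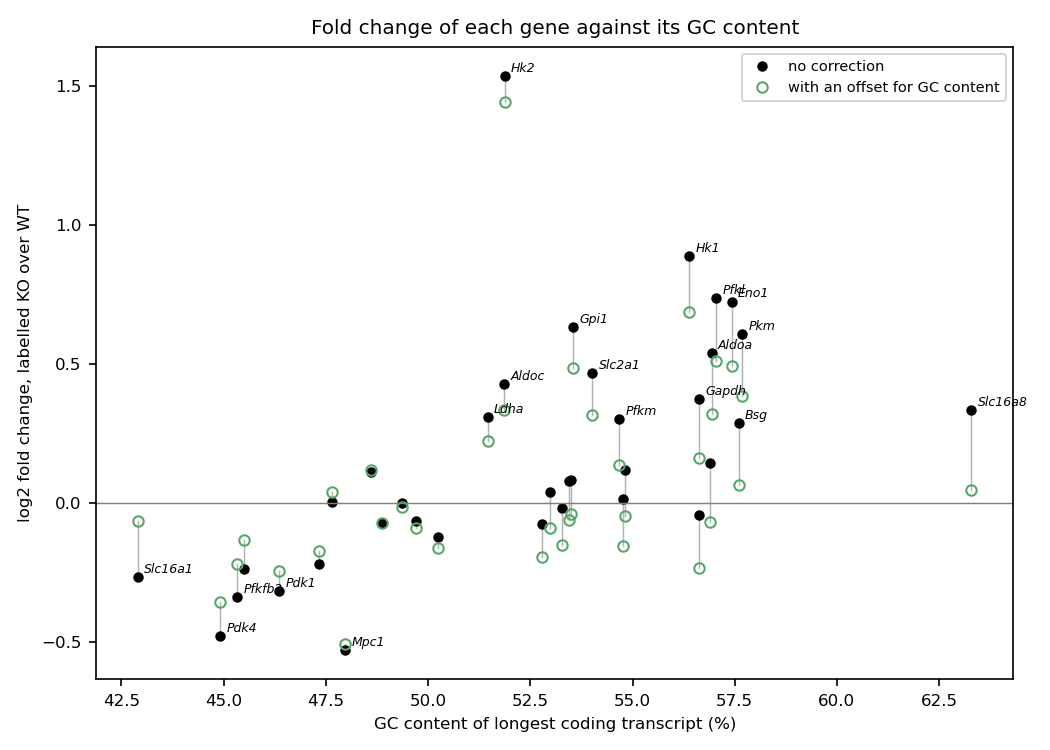
Log2 fold change of each of the 36 genes (labelled KO over WT) against the GC content of its longest coding transcript in percent, without a correction (filled) and with an offset for GC content (open), joined by grey lines. The correction lowers the values of GC-rich genes such as Pkm and Eno1 and moves Hk2 little.

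Genes around the pathway were read from a list of 105, of which 100 were in the table and 94 could be tested. Of the 94, 6 were called higher, beside 4.74% of all tested genes, and 5 lower, beside 2.84%, and the median log2 fold change was 0.03. The counts by role below are of few genes and are to be read against the same shares. Among 16 other glucose and monocarboxylate carriers, 1 was called. Slc5a8, a sodium-coupled carrier of lactate and pyruvate, fell from 8.69 ± 0.650 CPM in WT to 3.97 ± 0.729 in the libraries labelled KO (log2 fold change -1.13, SE 0.17, adjusted p = 0.00692), and every library labelled KO was below every WT library. Among 7 partners of pyruvate dehydrogenase and entry enzymes, Pdp2, a phosphatase that switches the enzyme back on, rose by 0.66 (SE 0.13, adjusted p = 0.0217) on the log2 scale. Among 13 opposing or branching steps, Tkt, the transketolase of the pentose phosphate pathway, rose by 0.51 (SE 0.09, adjusted p = 0.0156). None of 10 other isozymes was called by edgeR, and 3 had an unadjusted p under 0.05, of which 2 were higher and 1 lower.

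The 17 regulators of glucose use included 2 genes called higher. Epas1, which encodes HIF-2 alpha, rose by 0.63 on the log2 scale (SE 0.13, adjusted p = 0.0243), and Egln2, a prolyl hydroxylase that marks HIF proteins for removal, by 0.56 (SE 0.14, adjusted p = 0.0412). Hif1a itself had a log2 fold change of -0.08 (SE 0.17, adjusted p = 0.793), a value that turned positive in 8 of 32 alternative settings. KO 2 and KO 3 were above every WT library and KO 4 to KO 6 below: the log2 fold change of Hif1a was 0.23 (adjusted p = 0.409) with KO 2 and KO 3 alone and -0.33 (adjusted p = 0.00162, called lower) with KO 4 to KO 6 alone. Txnip, a brake on glucose uptake, had one of -0.17 (SE 0.17, adjusted p = 0.527). Of 8 genes outside glycolysis that are known to rise in hypoxia, none was called higher by edgeR, where 1 had an unadjusted p under 0.05 in that direction, and 2 were called lower: Bnip3, a receptor for removal of mitochondria (log2 fold change -0.58, SE 0.12, adjusted p = 0.0251), and Vegfa, the vascular growth factor (-0.38, SE 0.09, adjusted p = 0.0317).

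In the citrate cycle, 1 of 17 genes was called higher and 2 lower. Ogdh, a subunit of oxoglutarate dehydrogenase, rose by 0.50 on the log2 scale (SE 0.13, adjusted p = 0.0421). Sucla2, a subunit of succinyl coenzyme A ligase, fell by 0.34 (SE 0.08, adjusted p = 0.0355), and Sdhd, a membrane anchor of succinate dehydrogenase, fell by 0.38 (SE 0.09, adjusted p = 0.0384). Of the 6 genes of the malate-aspartate shuttle, which carries the reducing power of glycolysis into mitochondria, Got1, the cytosolic aspartate aminotransferase, rose by 0.60 (SE 0.14, adjusted p = 0.0317) and the others were not called.

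Of the 8 fits that left out a library, Epas1, Egln2, Vegfa, Ogdh, Sucla2, Sdhd and Got1 kept their call in 2, those without KO 2 or without KO 3, and Bnip3 and Pdp2 in 3, with the fit without KO 6 added. Tkt kept it in 5 and Slc5a8 in 7.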

How the data were processed

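Total RNA of 8 mouse retina libraries was sequenced. The deposited table holds estimated counts per gene, made by the authors; their processing notes name Trim Galore, Salmon 1.10.2, DESeq2 and build GRCm38, without role or order, and the annotation release is not given in the sources used here. The values were whole, so rounding changed none. All genes were fitted together in edgeR 4.0.16 (R 4.3.3, limma 3.58.1) with TMM scaling, the default filter on low counts and the quasi-likelihood test, with Benjamini-Hochberg adjustment over all tested genes and calls at an adjusted p under 0.05. CPM were computed from TMM-scaled libraries. Standard errors follow from the fold change and its test statistic. Lengths, GC content and shared 31-base words came from GENCODE M21, in which 22121 of the 26824 gene identifiers were found; level per length uses the longest coding transcript.

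The members and gene lists were chosen with earlier results of these data known. By rule, every library's value is given for each called member and, in a role with none, for the member of highest level per length. Neighbouring genes are named if called, at most 4 a role, besides Hif1a and Txnip. Eno1, Pkm and Pfkl were added to a plot for their closeness to the threshold after their values were seen. The study's text says that 2 libraries labelled KO were left out of its own test of 3 against 3 but does not name them, so all 5 were used and each pair was left out in turn. Alternatives were another scaling (DESeq2 1.42.0 size factors, library size), another test (DESeq2, limma voom with quality weights), other filters and a GC offset. Libraries were also left out. With libraries as replicates, each a different mouse, p-values measure the spread between these libraries. That spread includes the distance of KO 4 to KO 6 from the rest and the lens share of KO 3. These cannot be told apart from differences between mice. No 2 libraries of the same group agreed within sampling noise. In counts drawn from the measured means, edgeR called 115 of 200 genes changed by a factor of 2, and 6 others, of 19694.

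The library number was not taken to pair the samples. Deviations of the same-numbered libraries 2 and 3 are mirror images within each group, so they give a single contrast, which correlated at -0.19. A single contrast that includes KO 3, with its high lens share, cannot decide whether the numbers pair the samples. Pseudogenes of Gapdh, Pgk1 and others can share reads with their parent gene.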

Additional observations from a re-analysis of the deposited data

Results flagged for a closer look

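The distance of an extreme library from its neighbour, divided by the range of the 5 libraries labelled KO on the log2 CPM scale, passed the critical value of 0.71 in 6 of the 40 values examined. Chance would give about 2 if the values were independent. They share the same 5 libraries and are not, so no excess is read from this count. KO 3 was the lowest of the 5, and the far one, in Hk1 (0.711), Pfkl (0.761) and Aldoa (0.746). KO 2 was the lowest in Pfkfb4 (0.731) and Pdhb (0.725), and KO 6 was the highest in Pfkfb1 (0.762), a gene of 19 to 34 counts per library.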

How the results depend on the processing

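The count of listed genes called over all libraries, 5, rose to 14 with the DESeq2 test, 19 with limma voom and 10 with a minimum of 10 counts in every library, where 1093 of 16861 genes were called higher and 755 lower. It was 1 to 15 with a library left out. It was 21 without KO 2 and KO 3, 1 without KO 2 and KO 4, 2 without KO 2 and KO 5 and 2 without KO 2 and KO 6. Without KO 3 and KO 4, KO 5 or KO 6 it was 15, 13 and 15, and 1 for each of the other 3 pairs and for KO 2 and KO 3 alone. For neighbouring genes, 11 called, the DESeq2 test gave 22, voom 53, a library left out 0 to 28, and KO 2 and KO 3 alone 1. Their pairs gave 52, 2, 2, 3, 23, 22, 24, 0, 1 and 1 in the same order. Calls among all genes, 1529, became 3127 with DESeq2, 8248 with voom, 132 to 3992 with a library left out and 180 with KO 2 and KO 3 alone. Pairs gave 8416, 399, 496, 645, 2540, 2593, 118, 191 and 203, with that without KO 3 and KO 5 within a factor of 1.5. Listed genes called with KO 2 and KO 3 alone, 1, became 0 by library size, 5 with DESeq2, 0 with voom and 0 to 17 with a library left out. The 17 came from KO 2 as the lone library of its group, assumed to vary as the WT libraries do, where 16.8% of all genes were called. The causes were not tested. The median of the listed genes turned to -0.042 with the GC offset. With KO 2 and KO 3 alone that median, 0.03, turned to -0.02 with the GC offset (all genes 0.02), -0.00013 with voom (-0.0040), -0.03 without WT 3 (-0.0041) and -0.10 without KO 2 (-0.016). Library size moved it to -0.08 along with the median of all genes, -0.10, so that the listed genes stayed above it. The calls with KO 4 to KO 6 alone moved by less than a factor of 1.5 in all 15 alternatives.

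Hk2 was called in 30 of 32 alternatives, Hk1 in 21, Mpc1 in 16, Slc2a1 in 15 and Aldoc in 14, each in 1 direction throughout. Among genes not called the sign was less stable, and that of Slc2a3, Pdk3 and Pfkfb4 changed in 15 of 32. Only libraries 2 and 3 share numbers between groups. With the replicate block on these 4 libraries, 0 listed, 0 neighbouring and 52 of all genes were called, and with no replicate block 0, 0 and 14. The crossed pairing gave 1, 2 and 527.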
